A study of Mus musculus with 12 samples.

Results

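Interferon-stimulated genes are the genes that cells switch on when an interferon binds its receptor. The 44 described here, of the 24346 gene symbols in the files, were taken by name from a list of known interferon targets. Each was found under its symbol. No level in these samples was asked of them, but earlier results of these data were known when they were chosen. They are grouped here into signalling factors, feedback and ISG15 conjugation, nucleic acid sensors, the IFIT, MX, OAS and IFITM families, other antiviral effectors, the PARP9 and DTX3L group, guanylate-binding proteins, immunity-related GTPases and other induced genes.

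Type I and type III interferons signal through JAK1 and TYK2 to a complex that holds STAT2 and IRF9 and binds the interferon-stimulated response element. Interferon gamma signals through JAK1 and JAK2 to the gamma-activated site, and many of these genes answer to either kind of interferon. In group 2 innate lymphoid cells (ILC2s), lymphocytes without antigen receptors that make type 2 cytokines, both kinds of interferon are known to restrain growth and cytokine output.

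The libraries were made from ILC2s sorted from mouse lung as CD45+, lineage-negative, Thy1.2+ and ST2+ cells. Mice were C57BL/6 by the labels and of the C57BL/6J background by the study's methods, either wild type (WT) or Sema6d−/− (labelled 6DKO), which lack semaphorin 6D, a transmembrane guidance protein, from the germline and so in every cell. They were 7 to 12 weeks old. They received PBS or recombinant interleukin-33 (IL-33), an epithelial alarm cytokine that activates ILC2s, into the nose and were sampled after 3 days of treatment, and the dose of IL-33 is 50 ng by the labels and 500 ng by the study's methods. This makes 4 groups of 3 libraries: WT PBS, WT IL-33, 6DKO PBS and 6DKO IL-33. Values are FPKM: sequenced fragments of a gene divided by the length of its exons and by the mapped fragments of the library, so that levels can be compared between genes. Differences are given as log2 fold changes of FPKM + 1. The number of reads behind each library is not in these files, so the absolute depth is unknown.

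Sema6d itself, the targeted gene, came first as a check of the labels. It was listed at 27.5, 46.1 and 37.5 FPKM in the WT PBS libraries, 19.7, 35.5 and 28.7 in WT IL-33, 29, 22.9 and 19.8 in 6DKO PBS and 15.4, 13.6 and 13.8 in 6DKO IL-33. The 3 6DKO IL-33 libraries lay below the 3 WT IL-33 libraries (log2 fold change −0.89 ± 0.32 (SE), limma adjusted p = 1; exact permutation test, two-sided, p = 0.1, the smallest that 3 against 3 libraries allow), while the PBS groups overlapped. The transcript was thus still listed in every 6DKO library. The deleted exons are not given in the sources used, and a value per gene cannot show whether they are missing, so the level does not check the labels.

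The ILC2 label was checked against 12 markers. All 12 were above 1 FPKM in every library except 6DKO PBS 1, where Il13 was at 0.436, and they summed to 3734 to 6214 FPKM with Areg as the most abundant. Markers of other cells set 3 libraries apart: 6DKO PBS 2, 6DKO IL-33 2 and 6DKO IL-33 3. In 6DKO PBS 2, 6 of 6 NK cell markers were above 1 FPKM and summed to 759 FPKM, against 0 to 40.2 in the other 11 libraries, with Gzma the most abundant at 653, Ncr1 at 58.9 and Eomes at 5.47. The same library held 188 FPKM of 12 macrophage markers, and 6 of them were above 1 FPKM. These were Lyz2 (112), Chil3 (51.1), Marco (7.28), Mrc1 (6.84), C1qc (6.05) and Fcgr1 (5.25), while Csf1r, Adgre1, Cd68, Siglec1, C1qa and C1qb were at 0. Ifng was also highest of all in this library, at 28 FPKM. Macrophage markers also summed to 428 FPKM in 6DKO IL-33 2 and 146 in 6DKO IL-33 3, against 0.390 to 17.1 in the remaining 9 libraries; Chil3 was the most abundant, at 394 and 83.1, while Csf1r and Adgre1 were at 0 in both of these libraries. In 6DKO IL-33 3 the epithelial markers reached their highest sum, 101 FPKM against 7.02 to 54.0 elsewhere, from Sftpc at 97.2. The other lists showed less. Neutrophil markers summed to 6.54 to 16.3 FPKM with S100a8, S100a9 and Elane at 0 throughout, and Cxcr2 was the most abundant. Eosinophil markers reached 40.0 in 6DKO PBS 2, from Ear2, and at most 9.03 elsewhere, with Prg2 and Epx at 0. B cell markers summed to 0 to 26.9 FPKM, mostly from Cd79b except in WT PBS 3, where Cd79a made up all 5.05, with Ms4a1 and Pax5 at 0. T cell markers summed to 189.7 to 483 FPKM, from Cd3g, while Cd3e was at 0 to 9.81 and Cd4 at 0. Markers of plasmacytoid dendritic cells, the best known makers of type I interferon, summed to 3.53 to 40.9 FPKM, mainly Ccr9 except in 6DKO IL-33 1, where Tcf4 was higher, and 6DKO PBS 2, where both were near 5; Siglech was at 0 to 0.151 and Klk1 at 0. Endothelial markers summed to 1.32 to 23.1 with Pecam1 the most abundant except in WT PBS 2 (Kdr) and 6DKO PBS 2 (Cldn5), and Tek at 0, and mesenchymal markers to 0 to 4.51, most of it Col3a1 in 6DKO PBS 2. Of 28 markers of other cells tested, 2 passed with IL-33 in 6DKO and 1 in WT: Cd79b rose in WT (0 to 0.139 FPKM under PBS, 12 to 26.8 under IL-33; limma adjusted p = 0.0228), and in 6DKO Cd68 rose (0 to 0.240 and 2.1 to 4.87; 0.0279) and Epcam fell (22.3 to 54 and 0 to 8.43; 0.0185). Of all genes tested, 2.66% rose and 1.61% fell with IL-33 in WT, and 1.75% rose and 1.10% fell in 6DKO. Between genotypes 0 of the 28 passed in limma under either treatment, beside 0.00878% of all genes under IL-33 and 0.579% under PBS. At an unadjusted p under 0.05 in limma there were 2 under IL-33 and 1 under PBS, beside 1.83% and 12.9% of all genes. The part of these other cells in the levels of the interferon-stimulated genes was not tested. In bulk samples, fewer cells of a type and less RNA per cell cannot be told apart.

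PBS libraries also listed more genes at 0. Of 24346 genes, 13568 to 15426 stood at 0 in the PBS libraries and 11793 to 12287 in the IL-33 libraries. Among the 44 interferon-stimulated genes, 41 reached the mean of 0.5 FPKM over the 12 libraries that was asked of a gene before it was tested, as did 11395 genes in all. Ifit2, Oas2 and Iigp1 did not reach it, with highest values of 1.43, 0.553 and 2.37 FPKM. Of the 41, 17, 14 and 10 were at 0 in the WT PBS libraries and 19, 11 and 15 in the 6DKO PBS libraries, against 1, 4 and 2 in WT IL-33 and 1, 2 and 1 in 6DKO IL-33. This is 24.4% to 46.3% of them under PBS and 2.44% to 9.76% under IL-33; for all genes tested the shares were 12.9% to 25.3% and 4.29% to 6.00%. The depth of the libraries relative to WT PBS 1, read from the step between the lowest values, was 1.14 to 1.35 in the other PBS libraries and 1.31 to 1.88 in the IL-33 libraries. Its part in the genes at 0 was not tested.

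The comparison of IL-33 with PBS asks how the interferon-stimulated genes of ILC2s stand during type 2 activation. In WT mice 4 of the 41 rose (Bst2, Dhx58, Irf9 and Lgals3bp), that is, passed an adjusted p of 0.05 in limma with a positive log2 fold change, where 2.66% of all genes tested did, and 0 fell, where 1.61% of all genes did. In 6DKO mice 5 rose (Bst2, Dhx58, Ifit1, Lgals3bp and Oas3), against 1.75% of all genes, and 0 fell, against 1.10%. At an unadjusted p under 0.05, limma counted 10 members in WT and 24 in 6DKO, all of them higher with IL-33; this is 24.4% and 58.5% of the 41, beside 17.6% and 15.2% of all genes in either direction. For single members, groups of 3 libraries without overlap have an exact permutation p, two-sided, of 0.1, the smallest possible. The 3 IL-33 libraries lay above all 3 PBS libraries for 16 members in WT and 24 in 6DKO, where this held for 15.9% and 13.9% of all genes; they lay below for 0 members in either genotype, where this held for 9.23% and 8.75% of genes. In 6DKO, Ifi44 is in both this count and the unadjusted count, Oasl2 in the unadjusted count and Mx2 in this count. Ifi44, Oasl2 and Mx2 reached the mean asked of a tested gene through 6DKO IL-33 (group means 1.94, 1.78 and 1.21 FPKM). After quantile normalization 15 and 23 members lay above, beside 12.2% and 10.9% of all genes, and 0 below, beside 16.1% and 14.4%. The median log2 fold change over the 41 was 0.96 in WT and 1.77 in 6DKO, beside 0.16 and 0.14 over all genes tested; with a pseudocount of 0.1 it was 1.63 and 3.11, beside 0.30 and 0.27. In WT 35 of the 41 had a positive fold change and in 6DKO 40, beside 58.4% and 58.1% of all genes. The comparisons in WT and in 6DKO use different libraries but a shared estimate of the spread. The p-values measure only the spread between these samples.

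Level by library showed the same order. Mean log2(FPKM + 1) over the 41 members was 2.21, 2.43 and 2.64 in WT PBS, 3.54, 3.52 and 3.65 in WT IL-33, 1.86, 2.40 and 1.84 in 6DKO PBS, and 3.79, 3.62 and 4.22 in 6DKO IL-33. Every IL-33 library thus lay above every PBS library. The difference between IL-33 and PBS was 1.15 in WT and 1.84 in 6DKO, with a pooled standard deviation between libraries of 0.25; over all genes tested it was 0.25 and 0.23. The size depends on the pseudocount: with 0.1 in place of 1 the differences were 2.03 and 3.12, beside 0.63 and 0.61 over all genes. The highest PBS libraries of each genotype were WT PBS 3 and 6DKO PBS 2. The summed level of the 44 genes was 474 to 694 FPKM in the PBS libraries and 1209 to 1810 in the IL-33 libraries.

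**Figure D1:**
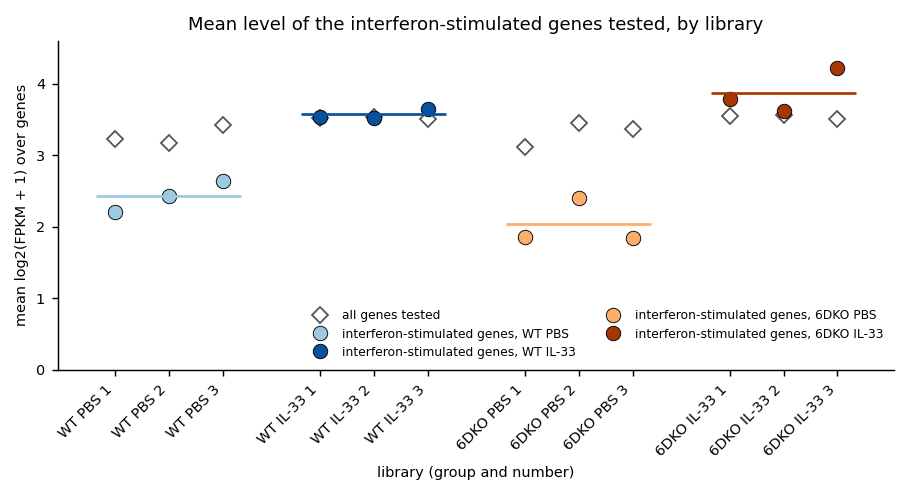
Mean log2(FPKM + 1) of the 41 interferon-stimulated genes tested (filled circles, coloured by group, with a line at the mean of the group's 3 libraries) and of all 11395 genes tested (open diamonds), for each of the 12 libraries. The members' means run from 1.84 to 2.64 in the 6 PBS libraries and from 3.52 to 4.22 in the 6 IL-33 libraries, while the means of all genes run from 3.12 to 3.56.

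The difference took several forms. All 6 IL-33 libraries lay above all 6 PBS libraries for 11 of the 41 (Bst2, Dhx58, Gbp2, Ifit1, Ifitm3, Igtp, Irf7, Irf9, Lgals3bp, Oas3 and Parp9), as for 4.12% of all genes. A group of 20 members stood at 0 in at least 1 PBS library and above 0 in all 6 IL-33 libraries, a pattern seen in 29.1% of all genes tested; Dhx58 alone was at 0 in all 6 PBS libraries and above 0 in all 6 IL-33 libraries, as were 88 genes in all. The 16 members above 0 in all 12 libraries hold no exact zeros, but some came near 0 under PBS. Eif2ak2 was at 0.0352, Stat2 at 0.173 and Isg15 at 0.265 FPKM in 6DKO PBS 1, and Irf7 at 0.0786 in 6DKO PBS 3. Among the 16 members the median log2 fold change with IL-33 was 0.56 in WT and 0.93 in 6DKO, beside 0.04 and 0.03 over the 6727 genes above 0 in all libraries, and 13 and 16 of the 16 had a positive fold change. The IL-33 libraries lay above the PBS libraries for 5 of these 16 in WT and 7 in 6DKO, beside 13.3% and 11.8% of the 6727 genes.

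**Figure D2:**
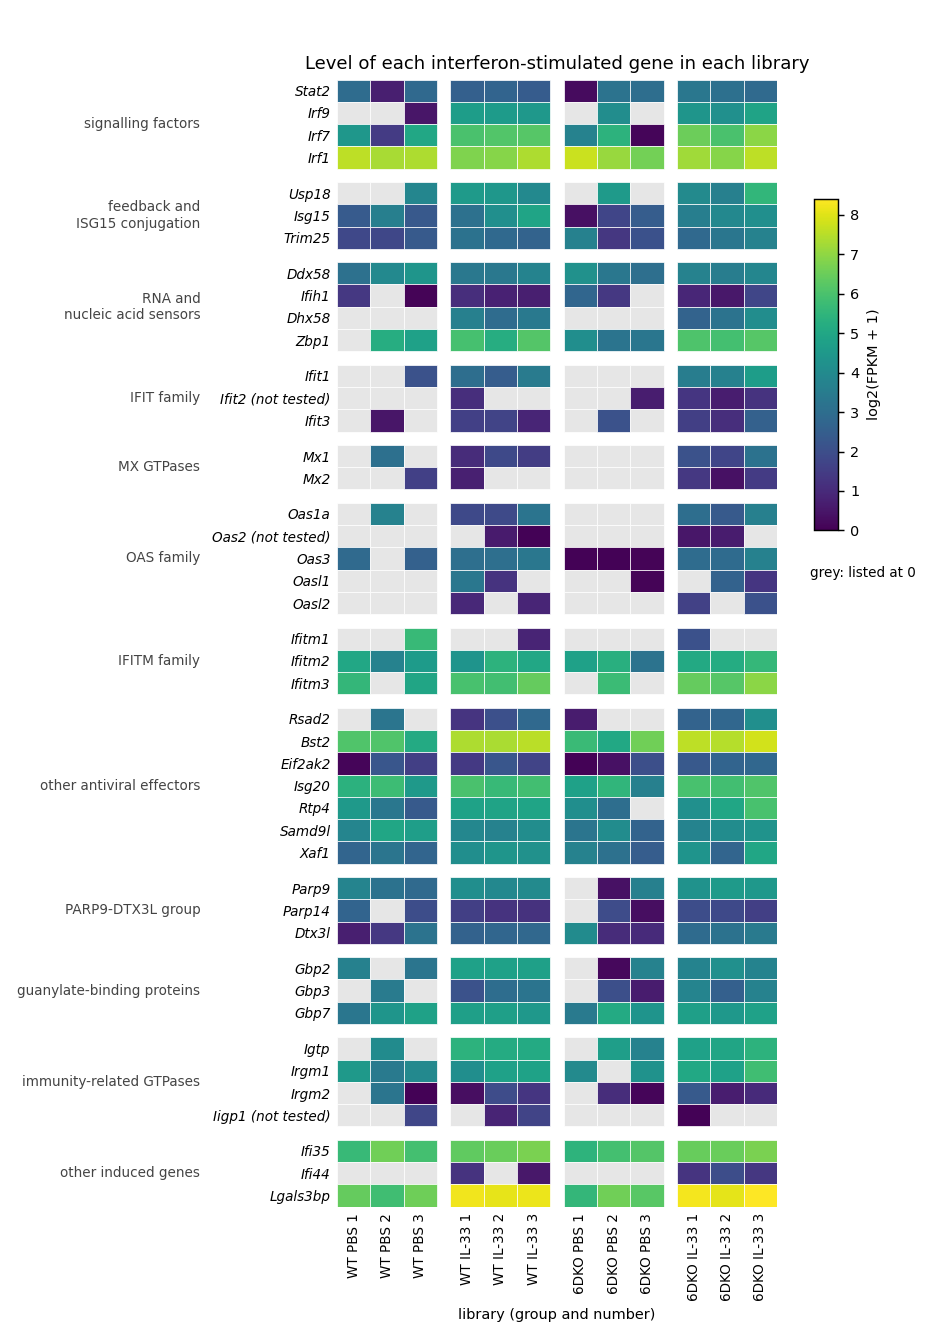
Level of each of the 44 interferon-stimulated genes, by role, in each of the 12 libraries, as log2(FPKM + 1), with grey for genes listed at 0. Grey fields gather in the 6 PBS libraries, where 10 to 19 of the 41 genes tested are at 0, against 1 to 4 in the 6 IL-33 libraries.

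Among the signalling factors, Irf9, a DNA-binding partner of STAT2, rose in WT. It was at 0, 0 and 0.387 FPKM in WT PBS, 24.1, 22.9 and 21.1 in WT IL-33, 0, 16 and 0 in 6DKO PBS and 20, 17.2 and 28.6 in 6DKO IL-33. The log2 fold change with IL-33 was 4.41 ± 0.89 (SE) in WT (limma adjusted p = 0.0165) and 3.13 ± 0.89 (SE) in 6DKO (adjusted p = 0.0994). All 6 IL-33 libraries were high and 5 of 6 PBS libraries were at or near 0, with 6DKO PBS 2, the library with NK cell markers, between them. Without that library the adjusted p in limma for 6DKO was 0.00104, with both remaining 6DKO PBS libraries at 0. The WT call was lost without WT PBS 1 (limma adjusted p = 0.0512) and without WT IL-33 1, 2 or 3 (0.0714, 0.0660 and 0.0666).

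Stat2, which carries an activation domain, stood at 6.68, 0.624 and 6.09 FPKM in WT PBS and 4.78, 5.44 and 4.35 in WT IL-33. In 6DKO it was at 0.173, 8.25 and 7.02 under PBS and 9.03, 7.48 and 6.38 under IL-33. The PBS libraries of each genotype were spread widely and overlapped with the IL-33 libraries, while the 3 6DKO IL-33 libraries lay above the 3 WT IL-33 libraries (log2 fold change 0.55 ± 0.81 (SE), limma adjusted p = 1). Irf1, an early target of interferon gamma and the most abundant of the signalling factors, was at 189, 157 and 163 in WT PBS and 109.6, 117 and 164 in WT IL-33. Its 6DKO values were 214, 137 and 97.5 under PBS and 146, 116 and 187 under IL-33, so it was high in every library and its groups overlapped (log2 fold change −0.40 in WT and 0.05 in 6DKO). Irf7, which drives transcription of the interferon alpha genes, ran from 1.77 to 31.5 FPKM in WT PBS and 0.0786 to 41.3 in 6DKO PBS to 62.3 to 72.3 and 62.4 to 123 with IL-33. Its groups did not overlap in either genotype, yet it did not pass the test (limma adjusted p = 0.295 and 0.166).

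Of the feedback and conjugation genes, none of 3 passed the test in limma; at an unadjusted p under 0.05 there was 1 in WT (Usp18) and 2 in 6DKO (Usp18 and Isg15), higher with IL-33, beside 17.6% and 15.2% of all genes in either direction. Usp18, which removes ISG15 from proteins and damps the type I receptor, was at 0, 0 and 13.5 FPKM in WT PBS, 22.2, 20.8 and 14.5 in WT IL-33, 0, 22.6 and 0 in 6DKO PBS and 14.7, 11.3 and 45 in 6DKO IL-33. It was at 0 in 4 of the 6 PBS libraries and high in WT PBS 3 and 6DKO PBS 2, where it came near to or into the range of the IL-33 libraries. The limma adjusted p was 0.234 in WT and 0.312 in 6DKO, with log2 fold changes of 3.03 and 2.86. Isg15, the ubiquitin-like protein that is joined to other proteins, ran from 0.265 to 29 FPKM and passed in 6DKO without 6DKO PBS 3 (adjusted p in limma 0.0494), and Trim25, a ubiquitin ligase that acts with the sensor RIG-I, ran from 1.54 to 12.

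Of the nucleic acid sensors, Dhx58 rose in both genotypes. It encodes LGP2, the RIG-I-like helicase that lacks a signalling domain and tunes the other sensors. Dhx58 was listed at 0 in all 6 PBS libraries and at 11.2, 6.7 and 9.54 FPKM in WT IL-33 and 5.25, 8.25 and 16 in 6DKO IL-33. Limma gave an adjusted p of 0.00220 in WT and 0.00345 in 6DKO, and with PBS at 0 no fold is given. Every IL-33 library lay above every PBS library, and the WT and 6DKO IL-33 libraries overlapped. Zbp1, a sensor of Z-form nucleic acid that can start necroptosis, was the most abundant sensor by the mean over all 12 libraries, though below Ddx58 in WT PBS 1, 6DKO PBS 1 and 6DKO PBS 2. It was at 0, 37.1 and 26.5 FPKM in WT PBS, 60, 36.4 and 70.7 in WT IL-33, 16.6, 8.31 and 8.84 in 6DKO PBS and 65.5, 58.3 and 71.2 in 6DKO IL-33. The treatment groups of Zbp1 overlapped in WT and lay apart in 6DKO; it did not pass the test (log2 fold change 2.43 and 2.49, limma adjusted p = 0.243 and 0.271), but passed in 6DKO in a fit of only the groups compared (0.0264). The RNA sensors RIG-I (Ddx58, 7.21 to 20 FPKM) and MDA5 (Ifih1, 0 to 5.68) overlapped between all groups.

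In the IFIT family, whose proteins bind foreign RNA and hold back its translation, Ifit1 rose in 6DKO. Ifit1 was at 0, 0 and 3.35 FPKM in WT PBS, 7.01, 4.43 and 9.91 in WT IL-33, 0, 0 and 0 in 6DKO PBS and 10.6, 11.5 and 23.8 in 6DKO IL-33. The limma adjusted p was 0.00680 in 6DKO, where PBS was listed at 0, and 0.0716 in WT (log2 fold change 2.26 ± 0.63 (SE)). Ifit1 was lowest in PBS, higher in WT IL-33 and highest in 6DKO IL-33, with no overlap at either step, but the difference of genotypes under IL-33 did not pass the test (log2 fold change 0.98 ± 0.63 (SE), limma adjusted p = 1). With both 6DKO PBS 2 and 6DKO IL-33 3 left out, a choice made after seeing the data, the 6DKO call was lost (limma adjusted p = 0.0610), while the remaining 6DKO libraries stood at 0 under PBS and at 10.6 and 11.5 under IL-33. Ifit3, its partner, ran from 0 to 4.91 FPKM, and Ifit2 was at 0 in 5 of 6 PBS libraries and at most 1.43 FPKM. The MX GTPases restrict virus replication, and many inbred mouse strains carry defective copies. Mx1 was at 0, 7.31 and 0 FPKM in WT PBS, 1.06, 2.64 and 1.85 in WT IL-33, 0, 0 and 0 in 6DKO PBS and 3.39, 2.3 and 7.9 in 6DKO IL-33. WT PBS 2 held nearly the highest Mx1 level, so that the WT groups overlapped, while the 6DKO groups did not (limma adjusted p = 0.821 and 0.144). Mx2 was at 0 in 7 libraries and reached 2 FPKM.

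The OAS enzymes sense double-stranded RNA and make oligoadenylates that activate RNase L. Oas3, the largest of them, rose in 6DKO. Oas3 was at 6.31, 0 and 4.92 FPKM in WT PBS, 7.22, 7.29 and 8.97 in WT IL-33, 0.0322, 0.0315 and 0.0543 in 6DKO PBS and 6.68, 6.55 and 11.7 in 6DKO IL-33. The log2 fold change with IL-33 was 3.12 ± 0.68 (SE) in 6DKO (limma adjusted p = 0.0318) and 1.32 ± 0.68 (SE) in WT (adjusted p = 0.352). All 3 6DKO PBS libraries and WT PBS 2 were at or near 0, and the other 8 were high. Between genotypes under PBS the log2 fold change was −1.76 ± 0.68 (SE) (limma adjusted p = 0.311). The 6DKO call for Oas3 was lost without any 1 of the 6 6DKO libraries (limma adjusted p = 0.0565 without 6DKO PBS 2 to 0.140 without 6DKO IL-33 3, with 0.0618 and 0.0603 without 6DKO PBS 1 or 3 and 0.0962 and 0.0952 without 6DKO IL-33 1 or 2). Oas1a was at 0 in 5 of 6 PBS libraries, at 12.4 FPKM in WT PBS 2, and at 2.61 to 8.44 in WT IL-33 and 4.13 to 11.4 in 6DKO IL-33. Oas1a passed in 6DKO in a fit of only the groups compared (limma adjusted p = 0.0297) and in WT without WT PBS 2 (0.0441). Oasl1, which represses translation of IRF7, reached 8.98 FPKM and Oasl2 3.24, and Oas2 stayed at or below 0.553.

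The IFITM proteins stop enveloped viruses at the fusion step. Ifitm3, the best studied, did not pass the test. It was at 46.6, 0 and 29.8 FPKM in WT PBS, 61.5, 57.6 and 83.6 in WT IL-33, 0, 52 and 0 in 6DKO PBS and 84.2, 71.8 and 123 in 6DKO IL-33. All IL-33 libraries lay above all PBS libraries, and 3 PBS libraries were at 0 (log2 fold change 2.57 ± 1.54 (SE) in WT and 4.61 ± 1.54 (SE) in 6DKO, limma adjusted p = 0.439 and 0.163). Without 6DKO PBS 2 the limma adjusted p in 6DKO was 0.0247, with both remaining 6DKO PBS libraries at 0. Ifitm2 ran from 8.18 to 47.5 FPKM in overlapping groups, and Ifitm1 was at 0 in 9 libraries and at 49.5 FPKM in WT PBS 3.

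Bst2, or tetherin, which holds budding virus particles at the cell surface, was the most abundant of the other antiviral effectors by the mean over all 12 libraries and rose in both genotypes. It stood at 67, 66.5 and 33.6 FPKM in WT PBS, 165, 159.9 and 183 in WT IL-33, 50.7, 31.9 and 95.4 in 6DKO PBS and 189.7, 177 and 225 in 6DKO IL-33. The log2 fold change was 1.65 ± 0.36 (SE) in WT (limma adjusted p = 0.0248) and 1.85 ± 0.36 (SE) in 6DKO (adjusted p = 0.0195). The lowest IL-33 library, at 159.9, lay well above the highest PBS library, at 95.4, and Bst2 was above 0 in all 12 libraries. The WT call for Bst2 was lost without WT PBS 3 (limma adjusted p = 0.0625). It was also lost without WT IL-33 1, 2 or 3 (limma adjusted p = 0.0889, 0.0769 and 0.104). With the replicate block (0.0504 in limma) and without a trend in eBayes (0.0615) the WT call was lost too. The 6DKO call for Bst2 was lost without 6DKO PBS 1 (limma adjusted p = 0.0505) or 6DKO IL-33 1, 2 or 3 (0.0729, 0.0665 and 0.0958). A fit of only the groups compared lost the 6DKO call as well (limma adjusted p = 0.0789). Eif2ak2, the kinase PKR that stops translation on sensing double-stranded RNA, was at 0.0803, 3.77 and 1.94 FPKM in WT PBS, 1.64, 3.75 and 2.23 in WT IL-33, 0.0352, 0.311 and 3.06 in 6DKO PBS and 3.98, 5.4 and 5.84 in 6DKO IL-33. The 6DKO IL-33 libraries were the highest for Eif2ak2 and did not overlap with any other group, though neither fold change against them passed the test (6DKO IL-33 against 6DKO PBS 1.77 ± 0.66 (SE), limma adjusted p = 0.219; against WT IL-33 0.81 ± 0.66 (SE), adjusted p = 1).

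The remaining antiviral effectors are given by range, and none passed the test. Isg20, an exonuclease that degrades single-stranded RNA, was at 22.1 to 53.2 FPKM in WT PBS, 49.7 to 63.1 in WT IL-33, 11.3 to 43.9 in 6DKO PBS and 57.3 to 67.2 in 6DKO IL-33, apart in 6DKO and overlapping in WT. Rsad2, or viperin, which makes a chain-terminating nucleotide, was at 0 in 4 of 6 PBS libraries, at 8.61 FPKM in WT PBS 2, above all 3 WT IL-33 libraries, and at 1.4 to 6.08 and 5.19 to 16.8 FPKM in the WT and 6DKO IL-33 libraries. Rtp4, a chaperone of receptors, ran from 4.14 to 21.7 in WT PBS and 0 to 16.3 in 6DKO PBS to 28 to 29.3 and 17.3 to 61.7 with IL-33, without overlap in either genotype. Xaf1, which binds the apoptosis inhibitor XIAP, did not overlap between treatments in WT (5.58 to 8.57 against 16.4 to 19.9) and did in 6DKO (4.48 to 12.3 against 5.47 to 30.7). Samd9l, a growth-restricting antiviral factor, was 1 of 6 members with a negative fold change in WT (log2 fold change −0.60 ± 0.44 (SE)), with 13.2 to 30.7 FPKM in WT PBS and 11.9 to 15.9 in WT IL-33; the others were Irf1, Ddx58, Mx2, Ifitm1 and Parp14.

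PARP9 and DTX3L form a complex that joins ADP-ribose and ubiquitin to proteins, and PARP14 is a related ADP-ribosyl transferase. Parp9 was at 12.8, 7.99 and 6.32 FPKM in WT PBS, 16.3, 14.1 and 15 in WT IL-33, 0, 0.297 and 11.3 in 6DKO PBS and 18.6, 22.5 and 21.4 in 6DKO IL-33. The 6DKO IL-33 libraries were the highest, the WT IL-33 libraries came next and all PBS libraries lay lower, without overlap between these sets; of the PBS libraries, 6DKO PBS 1 and 2 were at or near 0. The log2 fold change with IL-33 was 3.11 ± 0.77 (SE) in 6DKO (limma adjusted p = 0.0546) and 0.74 ± 0.77 (SE) in WT (adjusted p = 0.690); without 6DKO PBS 3 Parp9 passed in 6DKO (adjusted p in limma 0.00076). The 3 members of this group were each higher in every 6DKO IL-33 library than in any WT IL-33 library, as were 6.88% of all genes: Dtx3l at 6.54 to 9.74 against 5.12 to 6.02 FPKM and Parp14 at 1.95 to 2.92 against 1.3 to 1.95 beside Parp9, where the nearest Parp14 libraries are alike to 3 digits. None passed the test of genotypes (limma adjusted p = 1 for each), and Parp9 and Dtx3l are neighbours that share exon sequence on opposite strands.

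The guanylate-binding proteins coat the vacuoles of intracellular microbes, and interferon gamma is their strongest known inducer. None of the 3 passed the test in limma; at an unadjusted p under 0.05 there was 1 in WT (Gbp2) and 2 in 6DKO (Gbp2 and Gbp3), higher with IL-33, beside 17.6% and 15.2% of all genes in either direction. Gbp2 was at 11.7, 0 and 8.59 FPKM in WT PBS, 26.6, 26.5 and 25.9 in WT IL-33, 0, 0.127 and 12.1 in 6DKO PBS and 12.4, 17.1 and 12.5 in 6DKO IL-33. It was the only 1 of 41 members lower in every 6DKO IL-33 library than in any WT IL-33 library, as were 7.35% of all genes (log2 fold change −0.88 ± 1.04 (SE), limma adjusted p = 1), and it was at 0 in 6DKO PBS 1 and WT PBS 2. Without 6DKO PBS 3 Gbp2 passed with IL-33 in 6DKO (adjusted p in limma 0.0498). Gbp7, the most abundant of the 3 by the mean over all 12 libraries but below Gbp2 in WT PBS 1 and all 3 WT IL-33 libraries, was at 8.76, 19.9 and 27.2 in WT PBS, 25.4, 25.4 and 21.1 in WT IL-33, 9.74, 33.7 and 19.5 in 6DKO PBS and 25.3, 21.5 and 26.5 in 6DKO IL-33. The Gbp7 groups overlapped in every comparison, with the PBS libraries on both sides of the IL-33 libraries (log2 fold change 0.47 in WT and 0.36 in 6DKO). Gbp3 was at 0 in 3 PBS libraries, at 9.93 FPKM in WT PBS 2, above all 3 WT IL-33 libraries, and at 3.34 to 8.37 FPKM in WT IL-33 and at 4.77 to 13 in 6DKO IL-33.

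The immunity-related GTPases guard host membranes (Irgm1, Irgm2 and Igtp) or attack microbe vacuoles (Iigp1). Irgm1, the most abundant by the mean over all 12 libraries but below Igtp in all 3 WT IL-33 libraries, WT PBS 2, 6DKO PBS 2 and 6DKO IL-33 2, was at 22, 9.81 and 14.6 FPKM in WT PBS, 16.3, 26.2 and 27.8 in WT IL-33, 14.9, 0 and 18 in 6DKO PBS and 31.5, 26.3 and 55.4 in 6DKO IL-33. Its treatment groups overlapped in WT and not in 6DKO, where 6DKO PBS 2 was at 0 (log2 fold change 0.60 ± 0.90 (SE) and 2.46 ± 0.90 (SE), limma adjusted p = 0.795 and 0.204). Igtp was at 0 in WT PBS 1, WT PBS 3 and 6DKO PBS 1 and at 33.1 to 40.8 and 26.5 to 41 FPKM in the WT and 6DKO IL-33 libraries, above all PBS libraries (highest 24.4, in 6DKO PBS 2); it passed in WT with array weights (limma adjusted p = 0.0128) and without WT PBS 2 (0.0239). Irgm2 ran from 0 to 8.57 FPKM, and Iigp1 was at 0 in 8 libraries with at most 2.37 FPKM, in WT PBS 3.

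Lgals3bp, a secreted glycoprotein that binds galectins, rose in both genotypes and was the most abundant of the members under IL-33. It was at 84.7, 55.5 and 93.3 FPKM in WT PBS, 298, 271 and 284 in WT IL-33, 46.1, 94.2 and 72.9 in 6DKO PBS and 308, 263 and 338 in 6DKO IL-33. The log2 fold change was 1.89 ± 0.26 (SE) in WT (limma adjusted p = 0.00204) and 2.13 ± 0.26 (SE) in 6DKO (adjusted p = 0.00150). Every IL-33 library held more than every PBS library by a wide margin, and genotypes overlapped under either treatment. Lgals3bp and Dhx58 kept their calls in both genotypes under every alternative setting and with any library left out. Ifi44, a protein of unclear function, was listed at 0 in all 6 PBS libraries, at 1.33, 0 and 0.453 FPKM in WT IL-33 and at 1.42, 2.85 and 1.54 in 6DKO IL-33. The 3 6DKO IL-33 libraries were the highest for Ifi44, just above WT IL-33 1, and the limma adjusted p with IL-33 was 0.494 in WT and 0.0656 in 6DKO. Ifi44 passed in 6DKO under 4 alternatives: without a trend in eBayes (0.0422), without a filter (0.0219), with a pseudocount of 0.1 (0.0418) and in a fit of only the groups compared (0.0451). It reached the mean asked of a tested gene, at 0.633 FPKM, through 6DKO IL-33 (group mean 1.94). No conclusion on IL-33 in 6DKO is therefore drawn from Ifi44. Ifi35, a leucine-zipper protein, was above 0 everywhere, at 50.1 to 94.4 FPKM in WT PBS, 81.6 to 105 in WT IL-33, 42 to 69.5 in 6DKO PBS and 86.7 to 103 in 6DKO IL-33, with overlap in WT only.

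**Figure D3:**
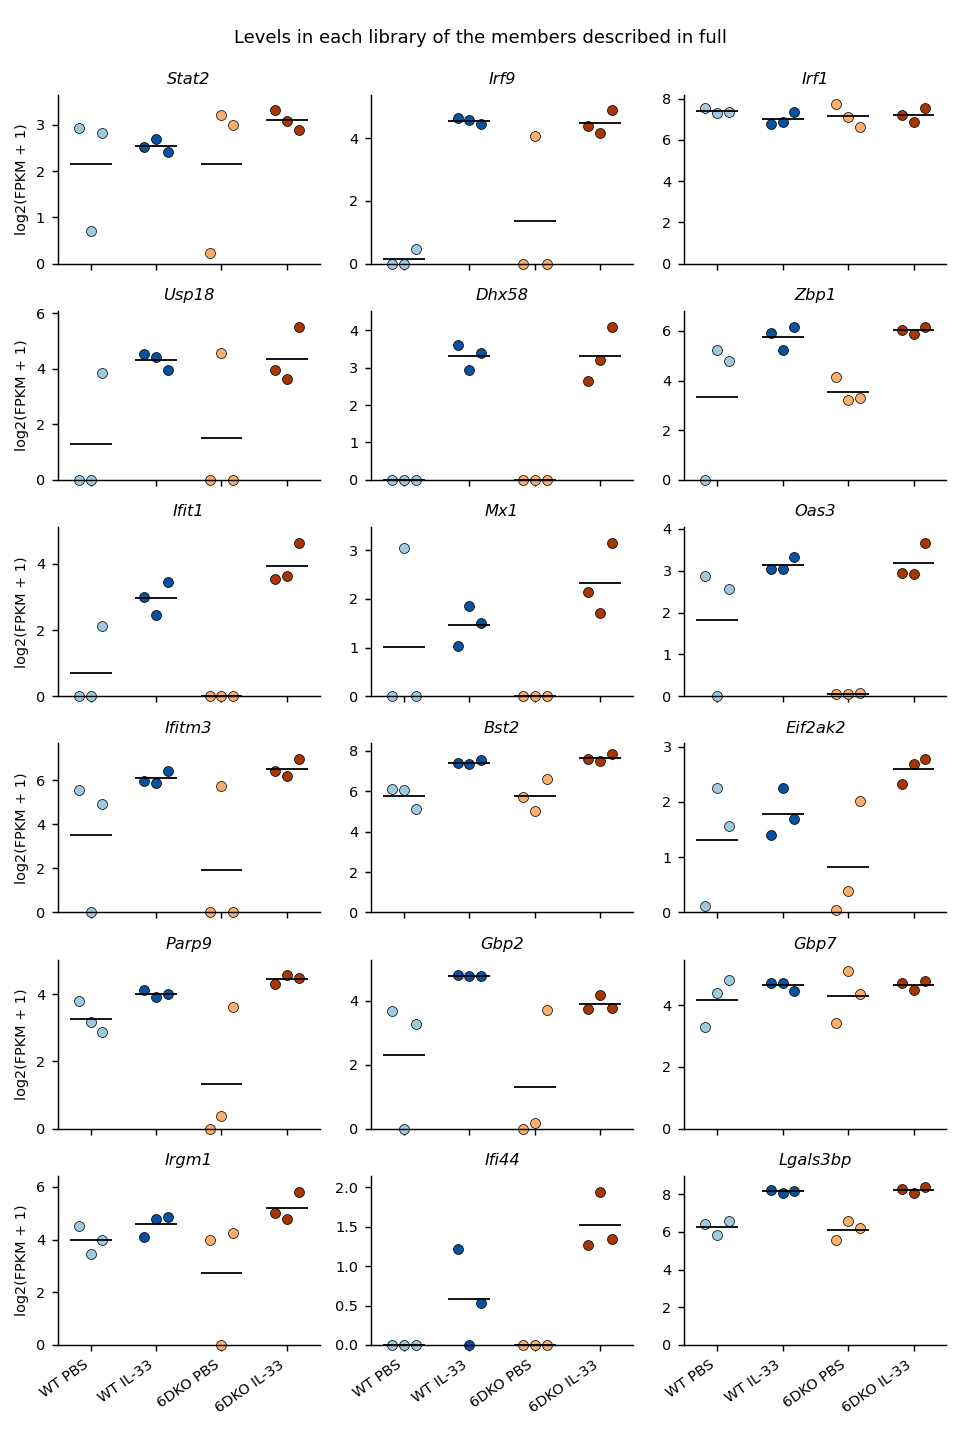
Level in each library, as log2(FPKM + 1), of the 18 interferon-stimulated genes whose values are given for all libraries; each point is a library, each black line the mean of the group's 3 libraries, and each panel has its own vertical axis from 0. Bst2, Dhx58 and Lgals3bp lie higher in all 6 IL-33 libraries than in all 6 PBS libraries, while Irf1 and Gbp7 overlap between all groups.

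Leaving out single libraries changed the 6DKO calls. Without 6DKO PBS 2, 7 members rose with IL-33 in 6DKO, beside 2.71% of all genes: Irf9, Ifitm3 and Isg20 joined and Oas3 dropped out. Without 6DKO PBS 3, 7 rose, beside 2.14%: Gbp2, Isg15 and Parp9 joined and Oas3 dropped out. Without 6DKO PBS 1 or 6DKO IL-33 1, 2 or 3, 3 members rose, as Bst2 and Oas3 dropped out, beside 1.47%, 0.702%, 0.579% and 0.711% of all genes. With both 6DKO PBS 2 and 6DKO IL-33 3 left out, 3 members rose: Irf9 (limma adjusted p = 0.00753), Dhx58 (0.0252) and Lgals3bp (0.0144), beside 1.11% of all genes. The difference in mean log2(FPKM + 1) between IL-33 and PBS in 6DKO was then 1.85, beside 1.84 with all libraries. Bst2, Ifit1 and Oas3 lost their calls in this fit. The log2 fold changes of Bst2 and Oas3 were 1.38 and 2.87 in it, beside 1.85 and 3.12 with all libraries. This fit kept 6DKO IL-33 2, the library with the most macrophage markers. In WT, 2 members rose without WT IL-33 1, 2 or 3, beside 1.04%, 1.24% and 1.16% of all genes, 3 without WT PBS 1, beside 2.31%, 4 without WT PBS 3, where Ifit1 joined and Bst2 dropped out, beside 3.71%, and 7 without WT PBS 2, beside 2.78%. Gbp3, Igtp and Oas1a joined without WT PBS 2, the library in which Oas1a, Mx1, Gbp3 and Rsad2 were high under PBS.

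The comparison of 6DKO with WT asks whether loss of Sema6d goes with a different level of these genes. Under IL-33, 0 of the 41 members passed the test in limma, where 1 gene did in all (0.00878%). The adjusted p in limma was 1 for each member. That value does not show equal levels, since the estimate of the spread is shared by all 4 groups. In the fit with array weights, the PBS libraries had weights of 0.244 to 0.606 and the IL-33 libraries 1.93 to 3.24. At an unadjusted p under 0.05 in limma there was 1, Ifi44 (2.44% of the 41, beside 1.83% of all genes). Ifi44 reached the mean asked of a tested gene, at 0.633 FPKM, through 6DKO IL-33 (group mean 1.94). Its group means were 0 under PBS and 0.595 in WT IL-33, so no conclusion on genotype is drawn from Ifi44. The 6DKO libraries lay above the WT libraries for 7 members (Stat2, Ifit1, Eif2ak2, Parp9, Parp14, Dtx3l and Ifi44), where this held for 6.88% of all genes, and below for 1 (Gbp2), where this held for 7.35%. The median log2 fold change was 0.27 over the members and 0.01 over all genes, with 34 of the 41 members above 0 beside 50.7% of all genes. Mean log2(FPKM + 1) was higher by 0.31 in 6DKO, beside 0.02 for all genes. That difference rested in large part on 6DKO IL-33 3. This library was the highest of all 12 for 22 of the 41 members, beside 4.57% of all genes, and the highest of its group for 32, beside 33.1% of all genes. Without it the difference in the members' mean was 0.13 and the median 0.15; 7 members lay above WT without overlap, beside 11.7% of all genes, and 4 below, beside 11.4%. Without 6DKO IL-33 2, which held the most macrophage markers, the mean differed by 0.43 and the median by 0.42, and 16 members lay above WT, beside 12.5% of all genes; without WT IL-33 3, 13 lay above, beside 11.9%. 6DKO IL-33 3 also held 97.2 FPKM of Sftpc. Of the 28 markers of other cells tested, 1 lay below WT under IL-33 without overlap, Cdh1 (3.57%, beside 7.35% of all genes), and 2 above (7.14%, beside 6.88%), both of them macrophage markers: Lyz2 was at 5.4, 22.2 and 57.9 FPKM in 6DKO IL-33 and 0.720 to 3.93 in WT IL-33, and Cd68 at 4.87, 4.15 and 2.1 and 0 to 1.15 (limma adjusted p = 1 and 0.842, unadjusted 0.0612 and 0.00148). Mrc1, Marco and Fcgr1, of the same list, were at 0 in all 3 6DKO IL-33 libraries. The part of other cells in the members' levels was not tested.

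Under PBS, 0 of the 41 members passed the test in limma between genotypes, where 0.579% of all genes did; at an unadjusted p under 0.05 there were 3, all lower in 6DKO (7.32% of the 41, beside 12.9% of all genes). These were Oas3 (log2 fold change −1.76 ± 0.68 (SE), limma adjusted p = 0.311), Samd9l (−1.17 ± 0.44 (SE), adjusted p = 0.299) and Parp9 (−1.94 ± 0.77 (SE), adjusted p = 0.325). Of the 16 members above 0 in all libraries, 0 lay above WT without overlap and 0 below, beside 5.16% and 4.89% of the 6727 such genes. The median over the members was −0.26, beside 0.00 over all genes. Of the 41, 12 had a fold change above 0 and 26 below, while 50.3% of all genes were above 0. Dhx58, Oasl2 and Ifi44 were neither, being at 0 in every PBS library. The median was −0.01 without WT PBS 2 or without WT PBS 3, −0.15 without 6DKO PBS 3, −0.41 without WT PBS 1 and −0.44 without 6DKO PBS 2. Mean log2(FPKM + 1) differed by −0.39, beside 0.04 for all genes, by −0.57 to −0.28 with 1 library left out, and by −0.65 with a pseudocount of 0.1. Oas3 passed without WT PBS 2 (adjusted p in limma 0.0284) and Parp9 without 6DKO PBS 3 (0.0119). The interaction, which asks whether the IL-33 difference itself differs between genotypes, passed for 0 of the 41 members in limma, where 0.0176% of all genes passed; 1, Parp9, had an unadjusted p under 0.05 (2.44% of the 41, beside 5.57% of all genes). For Parp9 the interaction was 2.38 ± 1.09 (SE) (limma adjusted p = 0.890). The median over the members was 0.64, beside −0.02 over all genes. So Ifit1 and Oas3, called in 6DKO, and Irf9, called in WT, are not shown to differ between genotypes in their change with IL-33 (adjusted p in limma 0.897, 0.897 and 0.9).

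The other genes of the pathway were read from lists of their own; with IL-33, 17.6% of all genes in WT and 15.2% in 6DKO had an unadjusted p under 0.05. Of 10 interferon genes, only Ifng was tested. Ifng was at 0, 0 and 13.1 FPKM in WT PBS, 0, 0.890 and 0 in WT IL-33, 0, 28 and 0 in 6DKO PBS and 0, 0.379 and 3.47 in 6DKO IL-33, and so was above 5 FPKM in WT PBS 3 and 6DKO PBS 2 alone. Ifnb1 was at 0.258 in 6DKO PBS 1 and at 0 elsewhere, and Ifna1, Ifna2, Ifna4, Ifna5, Ifnk, Ifne, Ifnl2 and Ifnl3 were at 0 in all 12 libraries. Of 9 receptor and kinase genes 8 were tested and 0 passed in limma with IL-33 (unadjusted p under 0.05: 2 in WT, Ifngr1 and Jak1, both lower, and 0 in 6DKO); Ifngr1, the binding chain for interferon gamma, was the most abundant at 312 to 596 FPKM, and Ifnar1 and Ifnar2, the type I receptor chains, were at 11 to 26.6 and 54 to 152. Ifnlr1, the type III receptor, was at 0 except in 6DKO PBS 2 (1.72). None of 5 further IRF and IRF-binding factors passed in limma with IL-33 (unadjusted p under 0.05: 2 in WT, 1 of them higher, and 0 in 6DKO), and Irf2bp2 was the most abundant at 59.9 to 142 FPKM. Of 11 sensors of nucleic acid, adaptors and kinases upstream of interferon, 7 were tested. With IL-33, 1 rose in WT and 0 in 6DKO, beside 2.66% and 1.75% of all genes. At an unadjusted p under 0.05 in limma there were 3 in WT (Mavs, Tmem173 and Ticam1) and 3 in 6DKO (Tmem173, Tbk1 and Ticam1), all higher. The gene that rose in WT was Tmem173, which encodes STING, at 32.9, 36.9 and 35.7 FPKM under PBS and 140, 140 and 111 under IL-33 (log2 fold change 1.85 ± 0.28 (SE), limma adjusted p = 0.00325). In 6DKO Tmem173 was at 28 to 61.8 under PBS and 77.5 to 103 under IL-33 (adjusted p in limma 0.0840). Under IL-33 it lay below WT in all 6DKO libraries and Tbk1 above, beside 7.35% and 6.88% of all genes, and neither passed in limma between genotypes. The negative regulators Socs1, Socs3, Ptpn2, Ptpn6 and Pias1 gave 0 of 5 in limma with IL-33 (unadjusted p under 0.05: Socs1, lower in WT, and Ptpn6, higher in 6DKO), with Ptpn2 the most abundant by the mean over all 12 libraries, at 56.7 to 208 FPKM.

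Of 44 further interferon-stimulated genes outside the set, 39 were tested; 3 rose in WT and 3 in 6DKO, beside 2.66% and 1.75% of all genes, and 0 fell in either in limma, beside 1.61% and 1.10% (lower at an unadjusted p under 0.05: 1 in WT and 0 in 6DKO). Ifi27l2a, a mitochondrial interferon-induced protein, was at 0, 21.5 and 5.92 FPKM in WT PBS, 225, 145 and 289.9 in WT IL-33, 0, 28.6 and 0 in 6DKO PBS and 218, 153 and 524 in 6DKO IL-33, and rose in both genotypes (log2 fold change 5.31 ± 1.29 (SE) and 6.40 ± 1.29 (SE), limma adjusted p = 0.0395 and 0.0214). Gbp6 (log2 fold change 3.14 ± 0.77 (SE), limma adjusted p = 0.0416) and Slfn2 (1.18 ± 0.28 (SE), adjusted p = 0.0343) rose in WT. Oas1b, at 0 in all 3 6DKO PBS libraries and at 4.37 to 7.3 FPKM with IL-33 (limma adjusted p = 0.0166), and the peptide transporter Tap1 (log2 fold change 1.93 ± 0.30 (SE), adjusted p = 0.00596) rose in 6DKO. The median log2 fold change of the 39 was 0.51 in WT and 0.47 in 6DKO, beside 0.16 and 0.14 over all genes. The most abundant was Ly6e, at 2026 to 2899 FPKM.

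Position was read for all 44. By the GENCODE vM21 annotation of GRCm38, they lie on 15 chromosomes, and 24 of them fall in 9 clusters whose neighbours are within 1000000 bases of each other: the OAS genes in a pair of clusters on chromosome 5, the GBP genes on chromosome 3, the IFIT genes on chromosome 19, the IFITM genes with Irf7 on chromosome 7, Mx1 with Mx2 and Parp14, Dtx3l and Parp9 on chromosome 16, and Igtp with Irgm2 and Dhx58 with Ifi35 on chromosome 11. Of the called members, Bst2 lies at chr8:71534255-71537456, Dhx58 at chr11:100694884-100704271, Irf9 at chr14:55603571-55610030, Lgals3bp at chr11:118392751-118402092, Ifit1 at chr19:34640871-34650009 and Oas3 at chr5:120753098-120777661. Sequence that genes share limits how well their levels can be told apart. Of all 75-base words in their transcripts, 47.6% of Oas1a are shared with Oas1g, 41.1% of Ifit3 with Ifit3b, 42.0% of Ifitm2 with other genes, 7.80% of Igtp with Irgm2 and 6.63% of Parp9 with Dtx3l; of the called members, the share was 5.19% for Ifit1, 2.13% for Dhx58, 0.854% for Irf9 and 0 for Bst2, Lgals3bp and Oas3. Exons of 17 members overlap those of another gene, in 7 of them on the same strand, Irf9 among them, and in 10 on the opposite strand, Dhx58 among them. For the 10, strand would tell the reads apart, but the labels and the study's methods name different library kits, so that it is unclear whether reads kept their strand.

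Promoters were read from a RefSeq table that gives 250 bases before and 50 after the start of each gene on GRCm38.p6. It holds 34 of the 44 members; Usp18, Dhx58, Zbp1, Mx1, Mx2, Oas2, Rtp4, Parp9, Parp14 and Iigp1 are not in it. The core of the interferon-stimulated response element, GAAANNGAAA on either strand, was found in 19 of the 34 (55.9%) and in 3.99% of the 27025 genes of the table. The core of the gamma-activated site, TTCNNNGAA, which reads the same on both strands, was found in 11 (32.4%) and in 9.55%. Both were present in 7 members (20.6%, beside 0.614% of all genes), Oas1a, Ifitm3, Bst2, Eif2ak2, Gbp7, Igtp and Irgm2, and neither in 11 (32.4%, beside 87.1%). Of the called members in the table, Bst2, Ifit1 and Oas3 hold the response element core, and Irf9 and Lgals3bp hold neither core in this window. A match is a description of letters, not of a bound site, and its absence says only that these letters are not in the window.

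**Figure D4:**
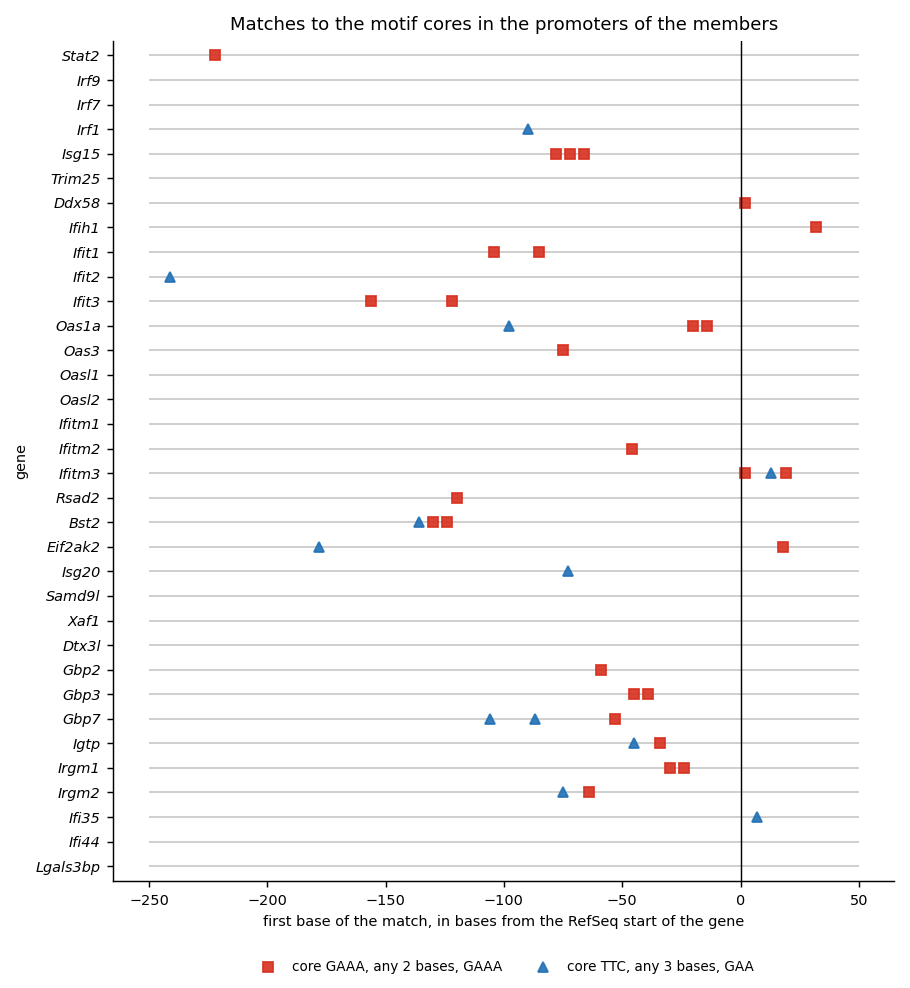
Matches to the core of the interferon-stimulated response element (red squares) and of the gamma-activated site (blue triangles) in the RefSeq promoters of 34 interferon-stimulated genes, each a grey line from 250 bases before to 50 bases after the start of the gene; a symbol marks the first base of a match. Of the 34 promoters, 19 hold a red square and 11 a blue triangle.

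The stretches that hold these cores are shown for the 3 called members with a match. They are read from the RefSeq promoters on GRCm38.p6, in the direction of the gene and outside annotated exons: Ifit1 at chr19:34640744-34640870 on the + strand, Oas3 at chr5:120777662-120777795 on the − strand and Bst2 at chr8:71537473-71537622 on the − strand. Capitals mark the response element core, on whichever strand it lies.
Ifit1: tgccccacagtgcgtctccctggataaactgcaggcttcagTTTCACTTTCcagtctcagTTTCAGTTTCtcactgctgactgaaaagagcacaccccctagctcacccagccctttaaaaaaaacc
Oas3: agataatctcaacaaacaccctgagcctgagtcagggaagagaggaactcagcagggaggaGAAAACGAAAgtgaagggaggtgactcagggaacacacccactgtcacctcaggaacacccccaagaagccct
Bst2: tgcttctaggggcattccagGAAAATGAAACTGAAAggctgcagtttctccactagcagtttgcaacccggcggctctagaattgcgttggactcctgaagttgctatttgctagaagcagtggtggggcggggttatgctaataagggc

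Ifit1 holds 2 separate copies, which start at positions −104 and −85 from the start of the gene, Oas3 a single copy at −75, and Bst2 2 copies that overlap, at −130 and −124. In Bst2 a gamma-activated site core, at −136, runs into the capitals.

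Igtp and Irgm2, neighbours on chromosome 11 whose transcripts overlap, are shown because their promoters are nearly alike around the core: Igtp at chr11:58199406-58199555 and Irgm2 at chr11:58214827-58214976, both on the + strand of GRCm38.p6, from RefSeq.
Igtp: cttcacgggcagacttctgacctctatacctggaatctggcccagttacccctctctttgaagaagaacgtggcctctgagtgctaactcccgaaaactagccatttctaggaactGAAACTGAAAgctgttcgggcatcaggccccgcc
Irgm2: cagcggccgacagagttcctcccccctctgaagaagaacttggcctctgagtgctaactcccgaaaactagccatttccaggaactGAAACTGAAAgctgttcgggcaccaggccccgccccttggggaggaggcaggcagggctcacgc

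From 60 bases before the core to 20 after it, 86 of 90 bases are equal (95.6%). Their levels were not alike: Igtp stood at 33.1 to 40.8 FPKM in WT IL-33 and 26.5 to 41 in 6DKO IL-33, and Irgm2 at 0.239 to 2.82 and 0.611 to 4.13.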

How the data were processed

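Per the labels, RNA of sorted mouse lung ILC2s was amplified (SMART-Seq HT) and made into libraries (Nextera). Also by the labels, reads were processed with TopHat2 2.1.1, Bowtie2 and Cuffdiff 2.2.1 on build mm10. The study's methods name another library kit, partly other versions, and Cuffnorm in place of Cuffdiff. Which program made the FPKM values is therefore unclear. The authors deposited 1 FPKM value per gene and library, 24346 genes in 12 libraries, which were used as deposited.

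From these, log2(FPKM + 1) was fitted in limma 3.58.1 (R 4.3.3; means of 4 groups, eBayes with a trend, 8 residual degrees of freedom) for the 11395 genes whose average over the libraries reached 0.5 FPKM, two-sided, with Benjamini-Hochberg adjustment over all of them and a threshold of 0.05. The script was tested on simulated data with known changes. Single members also got an exact permutation test, 3 libraries against 3, which cannot go below p = 0.1. Groups without overlap are those in which every library of 1 group lies above every library of the other. Relative depth was read from ratios of the lowest values.

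Values in every library are given for members that passed in any comparison, for the most abundant member of each role, and for members without overlap between genotypes under IL-33 whose log2 fold change was at least 0.5 in size; Parp14 and Dtx3l and the other members are given by range. Of pathway lists, genes that passed and the most abundant gene are named; Tmem173 in 6DKO, Tbk1, the receptor chains and the single markers of other cells were named after their values were seen. The members and lists were chosen with earlier results of these data known. Alternatives were another pseudocount, filters, scalings, weights, a replicate block, a fit of the groups compared and leaving out libraries.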

Additional observations from a re-analysis of the deposited data

How the results depend on the processing

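Directions of the members' median and mean level and of the called members were the same under all alternatives. Counts, by limma, were less steady. With 1 library left out at a time, the members called higher with IL-33 numbered 2 to 7 in WT (1.04% to 3.71% of all genes) and 3 to 7 in 6DKO (0.579% to 2.71%), and those called between genotypes under PBS 0 to 1 (0.685% to 1.87% of all genes; members at an unadjusted p under 0.05 with all libraries: 3). The members without overlap were then 17 to 25 higher and 0 to 2 lower with IL-33 in WT (18.8% to 25.5% and 11.1% to 16.2% of all genes), 24 to 31 higher and 0 lower with IL-33 in 6DKO (16.5% to 23.6% and 10.3% to 16.9%), and 7 to 16 higher and 1 to 4 lower in 6DKO than in WT under IL-33 (11.5% to 12.5% and 11.4% to 13%), where fewer libraries make overlap rarer. The median between genotypes under PBS, −0.26, then ran from −0.44 to −0.01. Leaving out both 6DKO PBS 2 and 6DKO IL-33 3 was chosen after seeing the data. It gave 3 members called higher with IL-33 in 6DKO by limma, beside 1.11% of all genes. Without 6DKO IL-33 3, 4 members (9.76%) lay lower in 6DKO than in WT under IL-33, fewer than the 11.4% of all genes.

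A pseudocount of 0.1 gave differences in mean level of 2.03 (IL-33 in WT), 3.12 (IL-33 in 6DKO) and −0.65 (genotype under PBS) and a median of 3.11 (IL-33 in 6DKO), since zeros then lie farther from other values. Quantile normalization gave differences of 0.88 in WT and 1.58 in 6DKO. It moved the median of all genes with IL-33 from 0.16 to −0.04 in WT and from 0.14 to −0.02 in 6DKO, and the genes called higher and lower from 303 and 183 to 248 and 231 in WT and from 199 and 125 to 136 and 134 in 6DKO; the cause was not tested. Array weights moved the genes called between genotypes from 1 to 55 under IL-33 and from 66 to 1 under PBS, with 0 members in each (limma, unadjusted p under 0.05: 1 and 3 in the fit with equal weights). With the replicate block, Bst2 lost its call in WT (limma adjusted p = 0.0504), while the other calls of single members were kept. Residual correlation of libraries with the same number, −0.0468 to 0.0448, was like that of libraries with different numbers, −0.0731 to 0.0530, so the numbers do not show pairs.

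Of 9 calls of single members, Dhx58 and Lgals3bp in both genotypes passed under all 15 alternatives in WT and 16 in 6DKO. Irf9 in WT passed under 11 of 15 (adjusted p in limma 0.00628 to 0.0714), Bst2 under 9 of 15 in WT (0.00923 to 0.104) and 10 of 16 in 6DKO (0.00605 to 0.129), Ifit1 under 15 of 16 (0.00439 to 0.0610) and Oas3 under 7 of 16 (0.0258 to 0.173). Limits: 3 libraries a group allow no exact p below 0.1, read depth is unknown, and genes at 0 in PBS libraries make folds depend on the pseudocount.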

Other observations

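Apobec3, which encodes a cytidine deaminase that restricts retroviruses, followed genotype and not treatment. It was at 78.6, 69.3 and 95.1 FPKM in WT PBS, 72.4, 84.5 and 77.9 in WT IL-33, 0, 11.5 and 5.76 in 6DKO PBS and 7.73, 2.86 and 10.3 in 6DKO IL-33. All 6 WT libraries lay far above all 6 6DKO libraries. Apobec3 fell in 6DKO under PBS (log2 fold change −4.21 ± 0.74 (SE), limma adjusted p = 0.0344) and did not pass under IL-33 (−3.45 ± 0.74 (SE), adjusted p = 0.489). Both comparisons use the same estimate of the spread, and with array weights more genes were called under IL-33 than under PBS. The calls thus do not show that the Apobec3 difference is weaker under IL-33.

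Under IL-33, 11 of the 39 further interferon-stimulated genes tested lay above WT in all 6DKO libraries (Oas1b, Gbp9, Slfn2, Slfn5, Trim30a, Phf11b, Sp100, Pml, Adar, Uba7 and Cxcl10), beside 6.88% of all genes, and 1, Apobec3, lay below, beside 7.35%. Phf11b was at 23.2, 32.1 and 26 FPKM in WT and 47.9, 43.4 and 43.6 in 6DKO, and Cxcl10, a chemokine for T and NK cells, at 140.4, 198 and 199 and 235, 206 and 291. Phf11b and Cxcl10 were chosen after their values were seen, and neither passed the test (limma adjusted p = 1 for both).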
